A study of Mus musculus with 2 samples.

Results

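The cells described here were lymphatic endothelial cells rich in the nuclear RNA Malat1 and not cycling, taken from melanoma tumors grown in mouse skin. A cell barcode counted as a member when it had at least 500 genes and under 10% of its UMIs (unique molecular identifiers, 1 per captured RNA molecule) from mitochondrial genes. It also needed at least 5 UMIs of a lymphatic panel (Ccl21a, Prox1, Lyve1, Flt4 and Mmrn1), at least 2 times as many as of each panel for blood endothelial, melanoma, macrophage, or pericyte and fibroblast cells. Malat1 had to make up at least 0.1% of its UMIs, and fewer than 3 of the 6 cycling genes Mki67, Top2a, Cenpf, Birc5, Cdk1 and Ube2c could be detected. The rule gave 341 members, of 979 lymphatic barcodes, 3334 barcodes that passed the gene and mitochondrial limits and 4993 barcodes in all. The Cre plus library held 311 of the members and the Cre minus library 30. The UMIs of these genes chose the members, so the levels of these genes in the members, which were chosen by them, are a description.

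The study compared Ifngr1iProx1 mice (Cre plus) with Ifngr1WT mice (Cre minus). Ifngr1 encodes the chain of the interferon-γ receptor that binds the cytokine, and Prox1 is the lymphatic transcription factor after which the Cre plus genotype is named; the Cre construct, its inducer and the exons removed are not given in the sources used here. Mice of both genotypes carried intradermal B16F10-OVALBUMIN/VEGFC tumors, a melanoma line that makes the model antigen ovalbumin and the lymphatic growth factor VEGF-C, started from 500K cells. On day 15, 3 tumors per genotype were pooled, digested with collagenase IV and DNase I, and sorted as viable (DAPI-), CD31+ and CD45- cells into 1 single-cell 3′ library. With 1 pooled library per genotype there was no replicate, so no test between genotypes was possible, and differences between mice and between libraries cannot be told apart from the genotype. The 95% intervals in brackets (exact binomial) cover counting error only.

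Lymphatic endothelial cells line the vessels that drain fluid, antigen and leukocytes from tissue. Prox1 sets their identity, Flt4 (VEGFR3) is their receptor for VEGF-C, and initial capillaries secrete Ccl21 and carry Lyve1 while collecting vessels hold valves. Interferon-γ signals through the kinases Jak1 and Jak2 to genes of antigen presentation, chemokines and antimicrobial GTPases. Malat1 stays in the nucleus, so that barcodes that hold a nucleus are usually rich in it and barcodes of cytoplasm alone are poor in it.

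Members made up 17.5% [15.7, 19.3] of the kept Cre plus barcodes and 1.93% [1.31, 2.75] of the kept Cre minus ones. Among lymphatic barcodes alone they were 40.4% [36.9, 44.0] and 14.4% [9.90, 19.9]. The other lymphatic barcodes were Malat1-poor (272 in Cre plus, 149 in Cre minus) or cycling (187 in Cre plus, 30 in Cre minus). The members were deep: their median was 25561 UMIs (range 1073 to 70897) and 5826 genes in Cre plus, against 18691.5 UMIs (range 2091 to 37288) and 5111 genes in Cre minus. Malat1-poor lymphatic barcodes had medians of 4657.5 and 4961 UMIs. The summed members held 8314466 and 546036 UMIs, and levels are given as counts scaled to the same total (CPM), so that the smaller Cre minus sum, from 30 members, limits the precision.

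Few barcodes lay near the limits of the rule, except on the cycling axis. Just below the Malat1 limit, at 0.05% to 0.1% of UMIs, were 8 Cre plus and 5 Cre minus barcodes, just above it, up to 0.2%, were 20 and 1, and below 0.05% were 264 and 144. On the lymphatic panel, 3 and 0 barcodes had 3 or 4 UMIs and 8 and 0 had 5 to 9. Among Cre plus barcodes that met the other conditions, 162 had none of the 6 cycling genes, 95 had 1, 54 had 2 and 21, which are outside, had 3; in Cre minus these numbers were 20, 5, 5 and 3. Of the barcodes in the libraries, 1 sequence occurred in both, and it was no member. No doublet caller was run; only the rule that the lymphatic panel lead each other panel by 2-fold removed mixed barcodes.

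The panel genes, which chose the members, were all present at high levels. Prox1 stood at 748 CPM in Cre plus against 954 CPM in Cre minus members, Flt4 at 758 and 1031 CPM, Lyve1, a hyaluronan receptor, at 1182 and 1615 CPM, Mmrn1 (multimerin 1) at 788 and 1126 CPM, and Ccl21a, the chemokine that draws in dendritic cells, at 4648 and 3820 CPM. After each barcode was thinned to 5000 UMIs, which left 281 Cre plus and 26 Cre minus members, Prox1 was present in 90.0% of the Cre plus and 84.6% of the Cre minus ones. In thinned blood endothelial barcodes the share with Prox1 was 1.77% and 0%, and in melanoma barcodes 1.79% and 1.16%. The panels of other cells were low in the members. The rule held each of them to a lower UMI count than the lymphatic panel, so these levels are also a description. Blood endothelial genes (Flt1, Plvap, Emcn, Gpihbp1 and Cd34) summed to 563 and 549 CPM, against 8147 and 9521 CPM in blood endothelial barcodes. Those barcodes were chosen by these genes. Melanoma genes (Dct, Pmel, Mlana and Tyrp1) summed to 42.1 and 69.6 CPM, macrophage genes (C1qa, C1qb, Tyrobp and Lyz2) to 16.1 and 12.8 CPM, and pericyte and fibroblast genes (Rgs5, Acta2, Col1a1 and Col3a1) to 2.77 and 1.83 CPM. No melanoma panel UMI was present in 137 of 311 Cre plus and 10 of 30 Cre minus members. A keratinocyte list summed to 2.41 CPM in Cre plus and was at 0 in Cre minus, and a T and NK cell list to 26.2 and 12.8 CPM. The wider list of 10 melanoma genes summed to 60.9 and 145 CPM, with all 3 measured genes lower in Cre plus. Macrophage genes outside the panel summed to 134 and 71.4 CPM (1 and 6 of 13 genes at 0), platelet and red cell genes to 1001 and 575 CPM, and 18 blood endothelial genes outside the panel, of which 3 were measured, to 2140 and 1110 CPM, most of it Fabp4. The platelet and red cell UMIs lay in few barcodes. After thinning, 29 of 281 Cre plus members held 96.2% of them, up to 1174 in a single member. None was present in 192 of 281 Cre plus and 19 of 26 Cre minus members.

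The members differed from blood endothelial barcodes in lymphatic receptors, channels and matrix genes, here named where both libraries showed the difference. They were set against blood endothelial barcodes chosen with the same Malat1 and cycling limits (111 Cre plus, 117 Cre minus), and all ratios were taken within a library. Of 6459 genes measured here (mean of at least 25 CPM), 13.5% were over 1.5-fold higher and 10% over 1.5-fold lower in the members of both libraries. Pld5, a phospholipase D family member, stood at 492 CPM in Cre plus against 1002 CPM in Cre minus members, against 0.80 and 0.59 CPM in the blood endothelial barcodes. Mrc1, the mannose receptor that lymphatic endothelium shares with macrophages, stood at 632 and 872 CPM in members, against 0 and 1.17 CPM. The macrophage panel, which the rule limited in the members, stood at 16.1 and 12.8 CPM there. Macrophage genes outside the panel summed to 134 and 71.4 CPM, and the part of macrophage RNA in the Mrc1 UMIs was not tested. Ptx3, a secreted pentraxin, stood at 406 and 467 CPM in members and was at 0 UMIs in both sets of blood endothelial barcodes.

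Against all blood endothelial barcodes that did not cycle (155 Cre plus, 185 Cre minus), 14.9% of 6417 genes were higher and 8.71% lower in the members of both libraries. Others of the 10 leading genes against the Malat1-rich ones were the collagen Col23a1, the sodium channel Scn3a, Fgf12, the surface protein Thy1, the homeobox gene Meis2, the ankyrin Ank2 and the channel Trpc6. In the other direction led Esm1, a marker of endothelial tip cells, with 5.29 CPM in Cre plus and 0 in Cre minus members, against 1431 and 1645 CPM in blood endothelial barcodes. Nrp1, a VEGF-A co-receptor, stood at 0.24 and 23.8 CPM in members, against 1185 and 1794 CPM. Its paralog Nrp2, which binds VEGF-C, stood at 1514 and 2157 CPM in the members. The transcription factor Mecom, the adhesion protein Esam, the matrix genes Sparcl1 and Adamts9, Ptn, Igfbp3, Cd300lg and the noncoding RNA Airn were also among the 10 lowest.

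**Figure D1:**
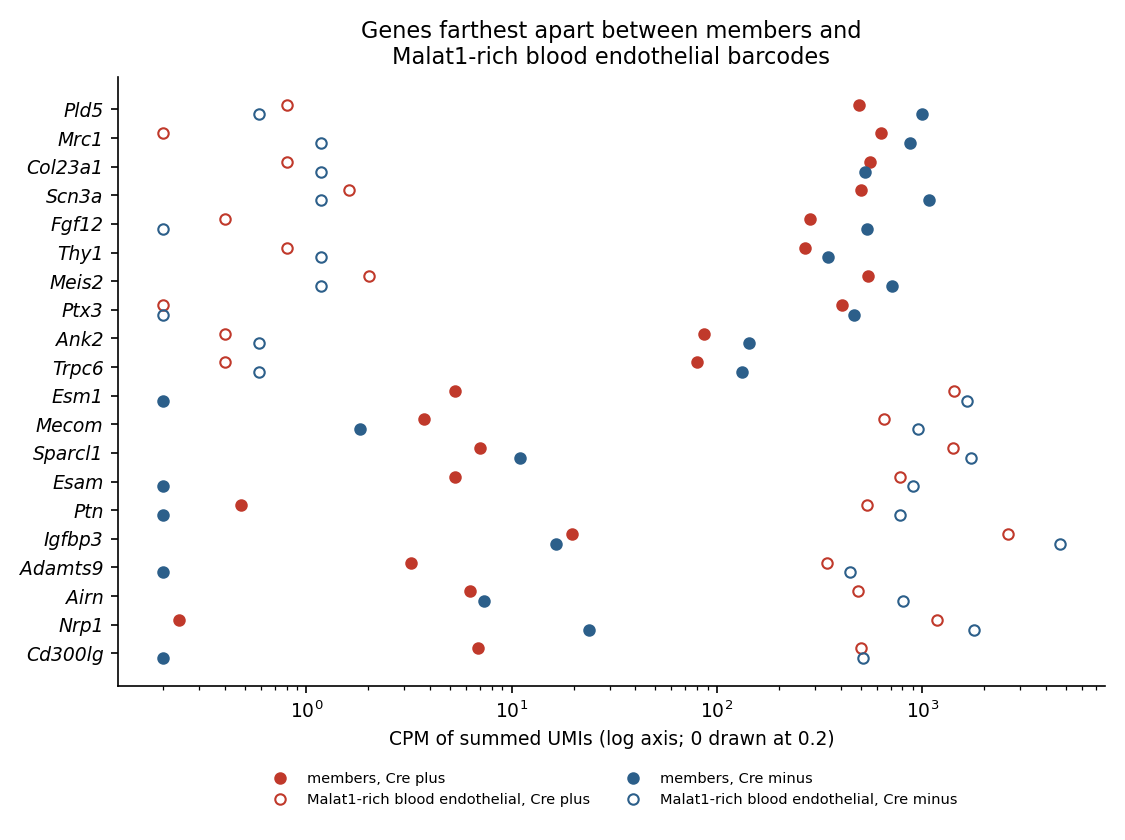
Summed CPM (log axis, 0 drawn at 0.2) of the 10 genes highest and the 10 lowest in members relative to Malat1-rich blood endothelial barcodes; filled points are members, open points blood endothelial barcodes, red Cre plus and blue Cre minus. The genes were chosen for a difference in both libraries, as for Pld5 at 492 and 1002 CPM in members and 0.80 and 0.59 CPM in blood endothelial barcodes.

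Gene lists followed the same division. Among lymphatic markers outside the rule, 17 of 20 measured were over 1.5-fold higher in the members of both libraries, with median log2 ratios of 2.26 in Cre plus and 3.03 in Cre minus, where the medians over all genes were 0.12 and 0.18. Of the lymphatic capillary list, 12 of 13 were higher. Only 11 of the 15 genes of this list lie outside the rule. The rule chose members by the others, so this count is partly set by it and is a description. Genes of endothelial sprouting, a list with 20 of 21 genes outside the rule, had 14 of 20 measured lower, with medians of -1.48 and -1.86. Of 19 basement membrane genes 5 were higher and 10 lower. Cholesterol synthesis was also on the members' side, with 14 of 16 genes higher and medians of 1.42 and 1.88.

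Against Malat1-poor lymphatic barcodes, the members carried more nuclear-retained RNA and less ribosomal and glycolytic RNA. Of 5656 genes 51.1% were over 1.5-fold higher and 8.82% over 1.5-fold lower in the members of both libraries. Zfpm2, a GATA cofactor, stood at 702 CPM in Cre plus against 1222 CPM in Cre minus members, against 7.57 and 4.24 CPM in Malat1-poor barcodes. The noncoding Kcnq1ot1 stood at 119 and 277 CPM in members and was at 0 UMIs in both Malat1-poor sets. All 6 measured nuclear-retained RNAs were higher, with medians of 5.10 and 6.25, a contrast tied to the Malat1 limit of the rule. All 40 listed ribosomal protein genes were lower, with medians of -1.05 and -2.16, as were 24 of 35 genes of oxidative phosphorylation and 10 of 15 of glycolysis. Collecting vessel and valve genes had 16 of 17 higher, with medians of 2.16 and 2.41 against 0.75 and 0.88 over all genes. Against cycling lymphatic barcodes 7.51% of 6406 genes were higher and 3.9% lower in the members. All 19 mitosis genes outside the rule and 14 of 17 replication genes were lower. The cycling limit of the rule separates these classes, so this contrast is tied to it and is a description.

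Single members differed widely in their RNA makeup. Malat1 had a median of 1.15% of a barcode's UMIs among Cre plus members and 1.44% among Cre minus members. Per 5000 thinned UMIs, ribosomal protein genes ranged over 41 to 1282 UMIs (median 682) in Cre plus members and 25 to 1121 (median 279) in Cre minus members. The groups overlapped over nearly the whole range, with more Cre minus barcodes at the low end. Across barcodes the ribosomal total and the Malat1 share were ranked in opposite order, with a Spearman rho of -0.62 over 281 Cre plus and -0.41 over 26 Cre minus barcodes. Within a library these barcodes share depth and free RNA, and the 2 quantities are shares of the same UMIs; rho of the ribosomal total with depth before thinning was 0.56 and 0.25.

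**Figure D2:**
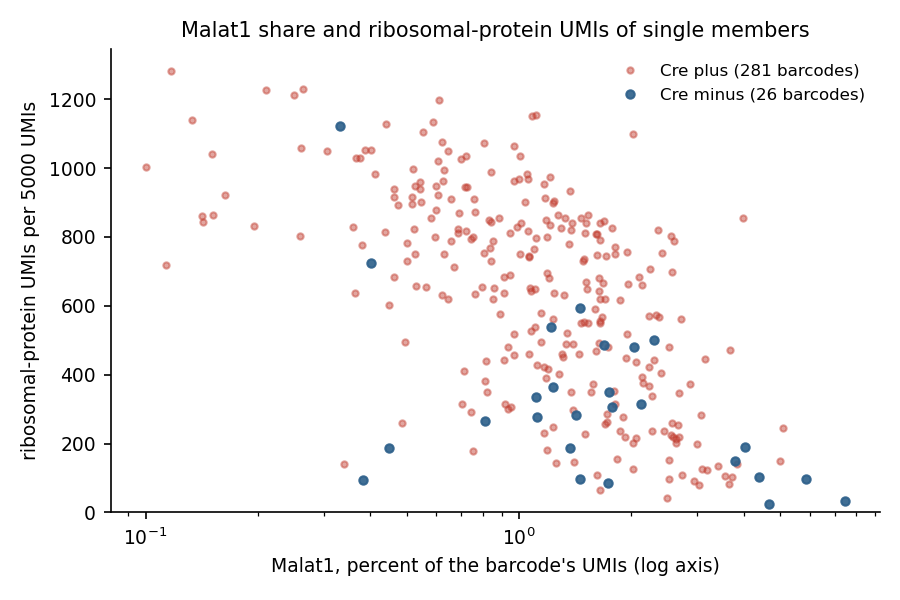
Malat1 share of UMIs (percent) against ribosomal protein UMIs per 5000 thinned UMIs, 1 point per member, 281 Cre plus and 26 Cre minus barcodes. Barcodes with a high Malat1 share lie at low ribosomal totals, and Cre minus members lie mostly in the lower part of the Cre plus range.

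Some genes were carried by small sets of members. Among 4688 genes with enough UMIs in the 281 thinned Cre plus members, the median ratio of variance to mean was 1.16, close to counting noise. Mt1, a metallothionein, had the highest ratio, 22.1, and 29 barcodes held 76.4% of its UMIs. Lgals3, galectin-3, was present in 11.7% of Cre plus members, with 97.0% of its UMIs in 29 barcodes, and in 0 of 26 Cre minus members. Before thinning it was present in 25.1% of Cre plus and 16.7% of Cre minus members. Melanoma barcodes had it in 85.7% and 80.9% after thinning and 95.4% and 93.3% before it, and the part of melanoma RNA in the members' UMIs was not tested. Ccl2, which attracts monocytes, was present in 22.4% of thinned Cre plus and 19.2% of Cre minus members (39.9% and 36.7% before thinning), with 82.6% of the Cre plus UMIs in 29 barcodes. Rsad2, an antiviral enzyme, was present in 20.3% and 15.4%, with 83.3% of the Cre plus UMIs in 29 barcodes. The other genes among the 15 most variable were Fn1, Fth1, Tmsb4x, Actb, Fabp4, Vim, Sparc, Nts, Ero1l, Gapdh and Fabp5, which cover matrix, iron storage, actin, lipid binding and glycolysis.

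The first question between genotypes was the target gene. Ifngr1 (chr10:19591949-19610229, plus strand, GRCm38, the assembly behind mm10) had 272 UMIs over the Cre plus members and 50 over the Cre minus ones. These were 32.7 CPM in Cre plus against 91.6 CPM in Cre minus, a log2 ratio of -1.48 [-1.92, -1.02]. The ratio lay between -1.97 and -1.27 under the alternatives tried. In other lymphatic barcodes Ifngr1 was also lower in Cre plus, at 7.57 CPM against 19.1 CPM in Cre minus Malat1-poor ones (13 and 18 UMIs) and 30.0 against 52.5 CPM in cycling ones. In Malat1-rich blood endothelial barcodes it stood at 218 CPM in Cre plus against 187 CPM in Cre minus, and in melanoma barcodes at 10.7 and 11.9 CPM. Macrophage panel barcodes also had less in Cre plus, at 136 and 181 CPM (-0.41 [-0.63, -0.18]). Pericyte and fibroblast panel barcodes stood at 54.5 and 42.6 CPM (74 and 23 UMIs). After thinning, 15.7% of Cre plus and 26.9% of Cre minus members had an Ifngr1 UMI (52.1% and 60.0% before thinning, at median depths of 25561 and 18691.5 UMIs). Melanoma barcodes, which hold little Ifngr1, had shares of 3.81% and 4.65% after thinning and 31.1% and 30.2% before it, at median depths of 18123 and 17813 UMIs. The 3′ reads count the end of the transcript, so that these UMIs do not measure how many alleles had recombined.

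Promoters of interferon genes show which of the lists below carry the known response elements. In the 250 bases before the transcription start, from RefSeq for GRCm38.p6 (mm10), the interferon-stimulated response element GAAANNGAAA was searched on both strands, and matches may overlap. It occurred in 9 of 11 promoters of interferon-induced GTPases, 11 of 36 of the type I interferon list, 3 of 21 of MHC class I presentation and 2 of 13 of interferon-γ signalling, against 2.98% of all 32851 promoters. The interferon-γ activated element (GAS) TTCNNNGAA occurred in 6, 5, 1 and 4 of these promoters, against 7.02% of all. Gbp2 (chr3:142620413-142620662, plus strand) and Irgm1 (chr11:48871421-48871670, minus strand) are GTPases, and Isg15 (chr4:156200819-156201068, minus strand) and Ifit1 (chr19:34640639-34640888, plus strand) are type I response genes. They are shown because they share the element while their levels differed in direction or hardly at all between the genotypes. Each is written 5′ to 3′ on the gene's strand, ending at the base before the start, with the element in capitals; a match is a description of the sequence only.
Gbp2: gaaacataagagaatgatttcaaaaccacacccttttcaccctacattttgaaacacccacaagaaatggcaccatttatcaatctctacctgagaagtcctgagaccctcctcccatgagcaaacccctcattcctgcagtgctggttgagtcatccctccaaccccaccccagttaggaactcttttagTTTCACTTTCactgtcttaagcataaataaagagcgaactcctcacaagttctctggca
Irgm1: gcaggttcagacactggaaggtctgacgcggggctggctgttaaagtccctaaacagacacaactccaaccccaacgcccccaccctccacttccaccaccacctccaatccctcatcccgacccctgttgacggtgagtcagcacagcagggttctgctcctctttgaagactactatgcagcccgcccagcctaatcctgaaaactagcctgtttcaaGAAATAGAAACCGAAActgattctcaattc
Isg15: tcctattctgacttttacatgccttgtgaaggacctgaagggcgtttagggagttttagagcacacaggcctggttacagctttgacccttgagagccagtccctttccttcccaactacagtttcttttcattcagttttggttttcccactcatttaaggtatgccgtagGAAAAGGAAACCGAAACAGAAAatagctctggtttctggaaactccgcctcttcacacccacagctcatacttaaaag
Ifit1: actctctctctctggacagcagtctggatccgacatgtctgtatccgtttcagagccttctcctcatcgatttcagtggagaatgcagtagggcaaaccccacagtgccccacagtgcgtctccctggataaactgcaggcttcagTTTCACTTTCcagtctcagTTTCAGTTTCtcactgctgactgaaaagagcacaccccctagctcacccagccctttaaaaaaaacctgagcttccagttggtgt

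The element began 59 bases before the start in Gbp2, at 30 and 24 bases in overlapping matches in Irgm1, at 78, 72 and 66 bases in Isg15 and at 104 and 85 bases in Ifit1. Gbp2 stood at 34.0 CPM in Cre plus against 114 CPM in Cre minus members, a log2 ratio of -1.74 [-2.14, -1.32]. A single Cre minus barcode held 38 of its 62 UMIs, and without the top barcode of each library Gbp2 stood at 31.1 and 45.3 CPM (-0.54 [-1.15, 0.13]). Irgm1 stood at 66.8 and 64.1 CPM, Isg15, a ubiquitin-like antiviral protein, at 269 and 115 CPM (1.22 [0.86, 1.61]), and Ifit1, which binds viral RNA, at 50.4 and 18.3 CPM (1.46 [0.57, 2.53]).

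The GTPase list moved with the choice of barcodes. Of 6586 genes measured between the genotypes (mean of at least 25 CPM in the members), 16.4% were over 1.5-fold higher and 24.7% over 1.5-fold lower in Cre plus, and the median log2 ratio was -0.19. Of 17 GTPase genes 7 were measured, 2 were over 1.5-fold lower and none over 1.5-fold higher, with a median of -0.38. Iigp1 stood at 71.6 CPM in Cre plus against 271 CPM in Cre minus (-1.92 [-2.18, -1.65]), with 127 of its 148 Cre minus UMIs in 2 barcodes. Gbp7 stood at 70.4 and 91.6 CPM. These families have close copies, so that reads may be shared among them or lost. Without the top barcode of each gene 1 was lower and the median was -0.12, whereas the median was -1.30 among members with no cycling gene and -1.88 among those without UMIs of the melanoma, macrophage and stromal panels. The list sum was 409 CPM in Cre plus members and 798 CPM in Cre minus members (-0.96 [-1.11, -0.82]). In Malat1-poor lymphatic barcodes the list median was -1.30 and in cycling ones -0.20, while in Malat1-rich blood endothelial barcodes it was 0.99. These medians rest on 7, 5 and 13 measured genes in that order, so the gene sets differ.

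Cxcl9, a chemokine for activated T cells, led the genes that were lower in Cre plus. It had 3 UMIs in 3 of the 311 Cre plus members and 54 UMIs in 3 of the 30 Cre minus members, or 0.36 and 98.9 CPM (-8.10 [-10.42, -6.47]). Malat1-poor lymphatic barcodes stood at 0.58 and 195 CPM, whereas Malat1-rich blood endothelial barcodes stood at 891 CPM in Cre plus against 197 CPM in Cre minus. Serping1, the C1 inhibitor of complement, stood at 5.89 and 47.6 CPM in members (-3.01 [-3.73, -2.27]). Its order was also the other way round in Malat1-rich blood endothelial barcodes, at 42.2 and 3.5 CPM. Of the MHC class II list only Cd74, the invariant chain, was measured, at 42.3 and 121 CPM (-1.51 [-1.90, -1.11]), with UMIs in 26 Cre plus and 5 Cre minus members.

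Class I antigen presentation did not stand apart from all genes. Of 21 measured genes 3 were over 1.5-fold higher and 4 over 1.5-fold lower in Cre plus, beside 16.4% higher and 24.7% lower over all genes, and the median was -0.20 beside -0.19. The median was -0.53 among members with no cycling gene and 0.09 after thinning. B2m, the light chain, stood at 1289 CPM in Cre plus against 1324 CPM in Cre minus members (-0.04 [-0.15, 0.07]), and the heavy chains H2-D1 and H2-K1, which have close copies, at 1095 and 1060 CPM and at 660 and 787 CPM. Nlrc5, the transactivator of class I genes, stood at 38.6 and 121 CPM (-1.65 [-2.03, -1.24]), and the peptide transporter Tap1 at 47.4 and 101 CPM (-1.09 [-1.50, -0.65]). The immunoproteasome subunit Psmb8 lay the other way, at 141 and 73.3 CPM (0.95 [0.49, 1.44]), as did Psmb10 at 79.0 and 36.6 CPM and the proteasome activator Psme2 at 124 and 75.1 CPM.

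Signalling components lay on both sides. Of 12 measured genes of interferon-γ signalling, 2 were higher and 4 lower, beside 16.4% and 24.7% of all genes, with a median of -0.16. The kinase Jak2 stood at 44.1 CPM in Cre plus against 89.7 CPM in Cre minus (-1.02 [-1.46, -0.56]) and Irf2, a repressor of interferon genes, at 136 and 225 CPM. The second receptor chain Ifngr2 stood at 86.1 and 44.0 CPM (0.97 [0.39, 1.62]), and the feedback inhibitor Socs3 at 52.3 and 20.1 CPM (1.38 [0.52, 2.39]).

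Genes of the type I interferon response were more often higher in Cre plus. Of 30 measured, 10 were over 1.5-fold higher and none over 1.5-fold lower, beside 16.4% and 24.7% of all genes, with a median of 0.25. Without the top barcode of each gene 12 were higher and the median was 0.51, but the median was -0.24 among members with no cycling gene and -0.38 among the 116 Cre plus and 7 Cre minus members without any melanoma, macrophage or stromal panel UMI. Ifitm3, which blocks viral entry, stood at 1966 CPM in Cre plus against 1029 CPM in Cre minus (0.93 [0.81, 1.06]). Irf7, which amplifies interferon production, stood at 68.3 and 23.8 CPM (1.52 [0.74, 2.44]), and Bst2, which tethers virions, at 828 and 542 CPM. Per 5000 thinned UMIs the list had a median of 24 UMIs (range 3 to 139) in Cre plus and 12 (range 4 to 56) in Cre minus members, with overlapping groups. The list median was 0.24 in Malat1-poor lymphatic, 0.67 in cycling lymphatic and 0.29 in Malat1-rich blood endothelial barcodes.

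**Figure D3:**
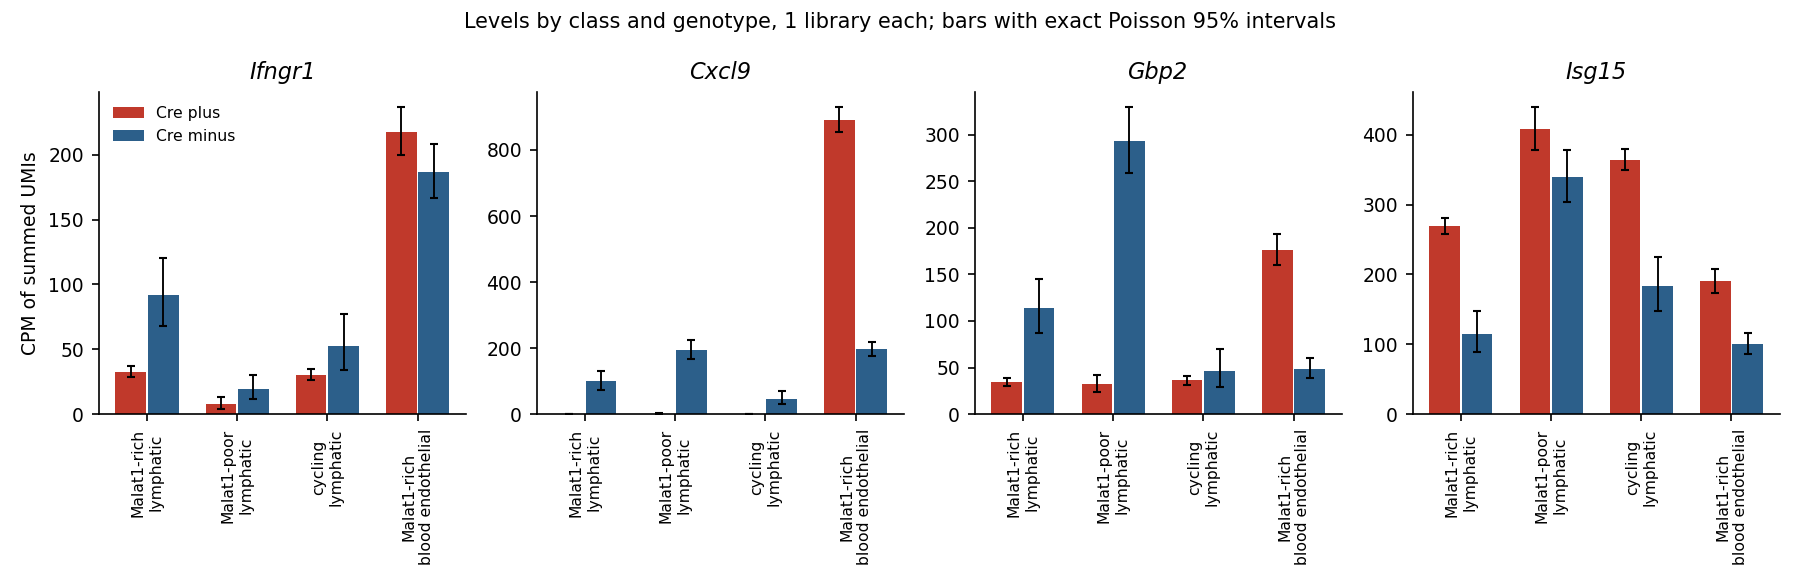
CPM of summed UMIs of Ifngr1, Cxcl9, Gbp2 and Isg15 in Cre plus (red) and Cre minus (blue) barcodes of the members (leftmost, Malat1-rich lymphatic) and 3 other endothelial classes, with exact Poisson 95% intervals as bars. Ifngr1, Cxcl9 and Gbp2 are lower in Cre plus members and higher in Cre plus Malat1-rich blood endothelial barcodes, and Isg15 is higher in Cre plus in all 4 classes.

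The 20 genes highest in Cre plus held stress, iron, lipid and glycolytic genes. Ier3, an immediate-early gene, stood at 73.7 CPM in Cre plus against 10.99 CPM in Cre minus members (2.75 [1.62, 4.20]). Hilpda, a lipid droplet protein induced in hypoxia, stood at 88.5 and 14.7 CPM (2.60 [1.61, 3.81]). Hmox1, which breaks down haem, stood at 150 and 31.1 CPM (2.27 [1.58, 3.05]). These 3 genes had UMIs in 130, 153 and 224 of 311 Cre plus members and in 5, 7 and 8 of 30 Cre minus members. Fth1, the ferritin heavy chain, stood at 2114 and 709 CPM, the monocyte chemokine Ccl2 at 180 and 54.9 CPM (1.71 [1.19, 2.29]) and the translation inhibitor Eif4ebp1 at 267 and 87.9 CPM. Fabp4, a fatty acid binding protein, stood at 1764 and 733 CPM (1.27 [1.12, 1.42]). The others included the AP-1 members Jund (357 and 110 CPM) and Junb (242 and 82.4 CPM), the ribosomal fusion gene Fau, the BH3-only gene Bik, Gapdh, Aldoa, Mif, Gstp1, Odc1, Timm13, Depp1 and the autophagy gene Gabarap. All 20 remained over 1.5-fold higher without the top barcode of each library. Among the 85 Cre plus and 13 Cre minus members with 5% to 12% ribosomal UMIs, Fabp4 stood at -0.0021, Gabarap at 0.18 and Fau at 0.33.

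Several of these genes were not higher in Cre plus in other lymphatic barcodes. Ccl2 stood at 55.3 CPM in Cre plus against 176 CPM in Cre minus Malat1-poor barcodes, and Fth1 at 5019 and 6831 CPM. Gapdh stood at 3285 and 3320 CPM and Mif at 1178 and 1247 CPM there. In blood endothelial barcodes not cycling, Ier3 stood at 93.4 and 34.4 CPM and Junb at 176 and 52.3 CPM, the same order as in the members.

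The 20 genes lowest in Cre plus rested on few Cre minus barcodes. Beside Cxcl9, Serping1 and Iigp1, they included the adhesion genes Pcdh7 and Cdh11, the chromatin protein Hmga2, the growth factor Kitl, the matrix genes Thbs1, Ntn4 and Crim1, coagulation factor F8 and the nuclear noncoding RNA Neat1. In 12 of the 20, over 50% of the Cre minus UMIs were in 1 barcode. Pcdh7 stood at 10.2 CPM in Cre plus against 225 CPM in Cre minus (-4.46 [-4.88, -4.05]), with 115 of 123 Cre minus UMIs in 1 barcode, and at -1.50 [-2.60, -0.21] without the top barcodes. Without them 16 of the 20 remained over 1.5-fold lower, Thbs1 stood at -0.34, and Rapgef4, Fam214a and Nkain2 turned positive, at 0.32, 0.33 and 0.20. In the Malat1 window described below Thbs1 turned to 0.74 and Ntn4 to 0.69, and in the ribosomal window Ntn4 turned to 2.12. The same Cre minus barcode led 12 of the 20 genes. It had 37288 UMIs, the most of all Cre minus members, 5537 genes, 26 lymphatic panel UMIs and 7.46% of its UMIs from Malat1.

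Fewer of the lower genes were found in most members or had no leading barcode. Neat1, the RNA of paraspeckles, stood at 295 CPM in Cre plus against 1042 CPM in Cre minus members (-1.82 [-1.95, -1.69]), with UMIs in 273 of 311 and 28 of 30 barcodes, at -1.49 [-1.64, -1.34] without the top barcodes and at -0.47 in the window of 5% to 12% ribosomal UMIs described below. Cttnbp2, a cortactin binding protein, stood at 29.4 and 117 CPM (-2.00 [-2.40, -1.58]), with 10 of its 64 Cre minus UMIs in 1 barcode. Cdh11, a mesenchymal cadherin, met neither condition. It stood at 39.1 and 192 CPM (-2.30 [-2.62, -1.97]), with UMIs in 78 of 311 and 9 of 30 members. The Cre minus barcode richest in Malat1 held 47 of its 105 Cre minus UMIs, and without the top barcodes it stood at -1.63 [-2.04, -1.20]. Without Malat1, 5 of 6 measured nuclear-retained RNAs were over 1.5-fold lower in Cre plus, beside 24.7% of all genes, with a median of -1.04. With Malat1 the list had 6 of 7 lower and a median of -0.90, of which 4 were lower without the top barcodes, and the median turned to 0.41 among the 116 Cre plus and 7 Cre minus members without any other panel UMI. Malat1, which chose the members, stood at 12191 and 21599 CPM.

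Genes of cholesterol synthesis were lower in Cre plus members, and the list median was below 0 under every alternative tried. Of 18 measured genes 13 were over 1.5-fold lower and 1 over 1.5-fold higher, beside 24.7% and 16.4% of all genes. The list median was -1.005, with a range of -1.13 to -0.74 over the alternatives. Hmgcs1, which makes HMG-CoA, stood at 113 CPM in Cre plus against 227 CPM in Cre minus members (-1.01 [-1.28, -0.73]). It was found in most barcodes, 233 of 311 and 20 of 30. The later enzymes lay likewise: Cyp51 at 54.8 and 139 CPM, Sqle (squalene epoxidase) at 31.6 and 75.1 CPM, Msmo1 at 62.2 and 125 CPM and Nsdhl at 15.8 and 47.6 CPM. Insig1, the sterol sensor partner, stood at 49.1 and 106 CPM. Pmvk lay the other way, at 56.8 and 36.6 CPM.

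Single members overlapped in this list. Per 5000 thinned UMIs the genes summed to a median of 4 UMIs (range 0 to 28) in Cre plus and 6 (range 2 to 37) in Cre minus members. Without the top barcode of each gene 12 were over 1.5-fold lower and the median was -0.84. The list median was -0.46 in Malat1-poor lymphatic, -0.73 in cycling lymphatic and -0.18 in Malat1-rich blood endothelial barcodes. These medians rest on 7, 18 and 7 measured genes, so the gene sets differ, and the difference between these classes was not tested. Hmgcs1 stood at 46.6 CPM in Cre plus against 54.1 CPM in Cre minus Malat1-poor barcodes, at 112 and 153 CPM in cycling ones and at 43.8 and 56.2 CPM in Malat1-rich blood endothelial ones.

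Promoters of the list are shown because 16 of its 18 measured genes had log2 ratios below 0. In the same 250-base windows the CCAAT box, with the letters CCAAT and the site of the factor NF-Y, occurred on either strand in 16 of 20 promoters of 17 listed genes, against 33.8% of all promoters. It also occurred in 15 of 21 promoters of MHC class I presentation and 8 of 13 of interferon-γ signalling, whose genes lay on both sides, in 13 of 36 of the type I interferon list and in 2 of 11 of the GTPases. The sterol response element ATCACNCCAC occurred in 0 of the 20, against 63 of all 32851 promoters (0.192%). With letters matched so rarely, 0 of 20 does not show that these promoters lack the element. The windows of Hmgcs1 (chr13:119690101-119690350, plus strand) and Msmo1 (chr8:64733579-64733828, minus strand) each hold 3 CCAAT matches, in capitals, which begin 237, 176 and 45 bases before the start in Hmgcs1 and 160, 96 and 55 bases before it in Msmo1.
Hmgcs1: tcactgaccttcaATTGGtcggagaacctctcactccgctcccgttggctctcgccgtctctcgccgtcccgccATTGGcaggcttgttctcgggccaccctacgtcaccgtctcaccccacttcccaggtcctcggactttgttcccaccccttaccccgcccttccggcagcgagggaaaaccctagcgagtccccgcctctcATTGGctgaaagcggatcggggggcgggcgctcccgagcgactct
Msmo1: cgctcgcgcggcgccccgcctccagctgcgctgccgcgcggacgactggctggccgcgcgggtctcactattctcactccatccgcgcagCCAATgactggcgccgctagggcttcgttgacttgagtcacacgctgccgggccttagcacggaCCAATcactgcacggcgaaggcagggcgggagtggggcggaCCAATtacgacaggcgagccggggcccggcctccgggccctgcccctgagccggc

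Fatty acid genes were divided. Synthesis and uptake had 2 of 11 genes higher and 5 lower, beside 16.4% and 24.7% of all genes. The list median was -0.56 (-0.60 to 0.02 over the alternatives). Scd2, a desaturase, stood at 140 CPM in Cre plus against 313 CPM in Cre minus (-1.16 [-1.39, -0.92]), and Acaca, which makes malonyl-CoA, at 39.5 and 93.4 CPM. The small carriers Fabp4 and Fabp5 lay the other way, Fabp5 at 630 and 319 CPM. Fatty acid oxidation had 5 of 14 higher and 1 lower, with a median of 0.31 (0.03 to 0.50 over the alternatives).

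Energy and ribosomal genes were higher in Cre plus members, together with the ribosomal share of all UMIs. Of 15 glycolysis genes 12 were over 1.5-fold higher and none over 1.5-fold lower, beside 16.4% and 24.7% of all genes. The glycolysis median was 1.05, or 0.28 among members without other panel UMIs. The same list had a median of -0.04 in Malat1-poor lymphatic, -0.26 in cycling lymphatic and 0.34 in Malat1-rich blood endothelial barcodes. In the members Gapdh stood at 1161 CPM in Cre plus against 452 CPM in Cre minus (1.36 [1.18, 1.55]), Ldha, which makes lactate, at 528 and 238 CPM (1.15 [0.90, 1.41]), and the glucose transporter Slc2a1 at 95.4 and 54.9 CPM. Pfkfb3, the activator of phosphofructokinase in endothelium, stood at 70.6 and 60.4 CPM. Hypoxia genes had 7 of 14 higher and none lower, with a median of 0.55 (0.20 to 0.76 over the alternatives). Bnip3, a mitophagy receptor, stood at 51.4 and 10.99 CPM, the prolyl hydroxylase Egln3 at 77.3 and 31.1 CPM, and Hif1a at 165 and 143 CPM. All 40 ribosomal protein genes were higher, with a median of 1.08, and 26 of 35 nuclear oxidative phosphorylation genes, with a median of 0.77, while mitochondrially encoded genes had a median of -0.47, which turned to 0.06 among members without other panel UMIs and 0.38 in the ribosomal window described next.

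All ribosomal protein genes together made up 14.3% of the UMIs of Cre plus members and 6.75% of those of Cre minus members. Malat1-rich blood endothelial barcodes, at 11.5% and 6.09%, had a like difference, while Malat1-poor lymphatic barcodes stood at 29.8% and 29.5% and cycling ones at 17.1% and 19.1%. List medians were also read among the 85 Cre plus and 13 Cre minus members with 5% to 12% ribosomal UMIs, a window chosen after seeing the data. There the median over all genes was -0.03, cholesterol synthesis stood at -1.13, type I interferon at 0.50, glycolysis at 0.63, immediate-early genes at 0.44 and hypoxia at 0.26. Oxidative phosphorylation stood at 0.13 and the 40 ribosomal genes at 0.14. In a window of 0.5% to 2% Malat1, with 197 and 14 members and also chosen after seeing the data, glycolysis stood at 1.08, ribosomal genes at 1.10 and cholesterol synthesis at -1.10.

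**Figure D4:**
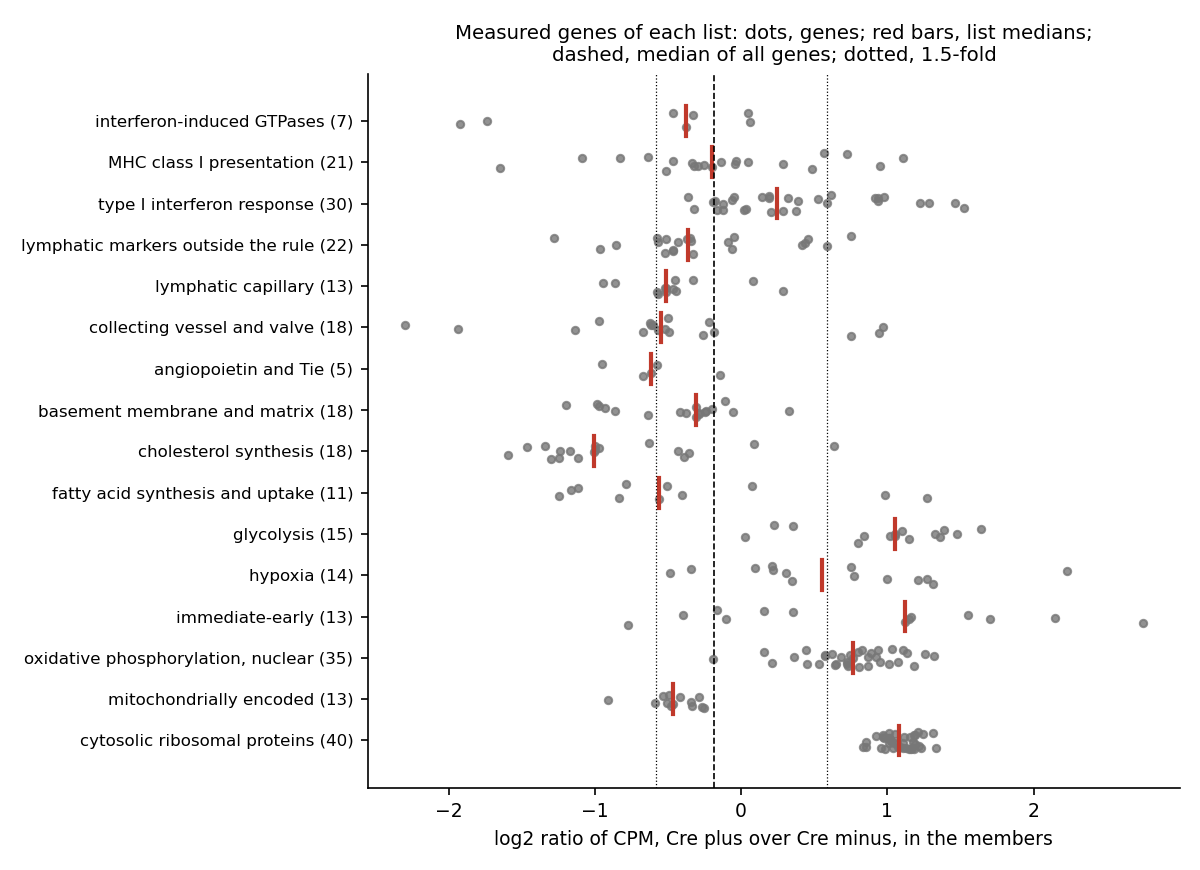
Log2 ratio of Cre plus over Cre minus CPM in members for each measured gene of 16 lists (dots), with the list median (red bar), the median over all 6586 genes (dashed, -0.19) and 1.5-fold (dotted). Glycolysis and ribosomal genes lie mostly above that line, cholesterol synthesis genes lie mostly below it, and class I genes lie on both sides.

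**Figure D5:**
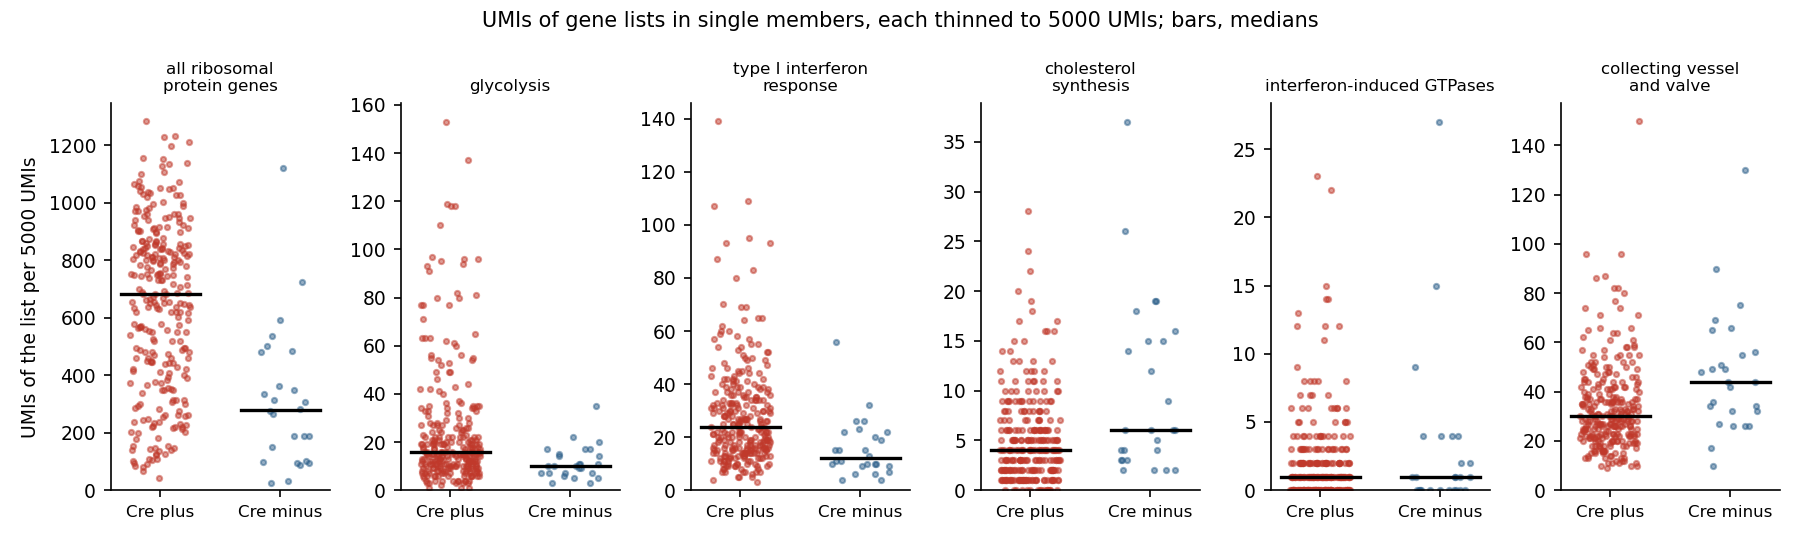
UMIs of 6 gene lists per 5000 thinned UMIs, 1 point per member, 281 Cre plus and 26 Cre minus barcodes, with a bar at the median. The groups overlap in every list, with medians of 682 and 279 for ribosomal genes, 24 and 12 for type I interferon and 4 and 6 for cholesterol synthesis.

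Transcription factors of lymphatic identity had a median near that of all genes (-0.19). The medians of lymphatic markers, capillary genes and collecting vessel genes were lower than that. Of 22 measured lymphatic markers outside the rule 2 were over 1.5-fold higher and 3 lower, beside 16.4% and 24.7% of all genes. The marker median was -0.36. Pdpn, podoplanin, stood at 208 CPM in Cre plus against 288 CPM in Cre minus, Reln at 647 and 965 CPM and the scavenger receptor Stab1 at 647 and 930 CPM. The transcription factors of the lineage had a median of -0.08, with Nr2f2 at 648 and 689 CPM, Maf at 833 and 870 CPM and Sox18 at 292 and 216 CPM. Lymphatic capillary genes had a median of -0.51 (2 of 13 lower), or -0.52 without genes of the rule (2 of 9 lower), and collecting vessel and valve genes -0.54 (3 of 18 higher, 8 lower). Without the top barcode of each gene the markers had 3 higher and 1 lower, with a median of -0.13. Capillary genes then had 1 lower (median -0.43) and collecting genes 3 higher and 4 lower (median -0.40). In the ribosomal window the medians were 0.00 for the markers, -0.07 for capillary and -0.13 for collecting genes.

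Among single vessel genes, the mechanosensitive channel Piezo2 stood at 938 CPM in Cre plus against 1709 CPM in Cre minus (-0.87 [-0.96, -0.77]). The flow-responsive factors Klf2 and Klf4 lay the other way, at 234 and 119 CPM (0.97 [0.62, 1.35]) and at 109 and 56.8 CPM. The atypical chemokine receptor Ackr2, which removes inflammatory chemokines, stood at 55.1 and 106 CPM. Its relative Ackr3 stood at 33.9 and 82.4 CPM, and at 0.03 on the log2 scale without the top barcodes. The valve factor Foxc2 had 50 UMIs over Cre plus members and 1 UMI over Cre minus members, too few to place.

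Single matrix and angiopoietin genes were lower in Cre plus, although their lists stayed near the median of all genes in the ribosomal window. Fibronectin, Fn1, stood at 1944 CPM in Cre plus against 3811 CPM in Cre minus (-0.97 [-1.04, -0.91]), tenascin C, Tnc, at 438 and 1004 CPM (-1.20 [-1.33, -1.07]) and the laminin chain Lama4 at 842 and 1533 CPM (-0.86 [-0.97, -0.76]). Each was still at -0.72, -1.02 and -0.86 without the top barcodes. Of 18 basement membrane genes 6 were lower and none higher, beside 24.7% and 16.4% of all genes, with a median of -0.31. Of 5 measured angiopoietin and Tie genes 3 were lower, with a median of -0.62: Angpt2, the context-dependent Tie2 ligand, stood at 509 and 809 CPM, the phosphatase Ptprb at 193 and 374 CPM and the receptor Tek at 147 and 218 CPM. Without the top barcode of each gene 4 basement membrane genes and 1 angiopoietin or Tie gene were lower, with medians of -0.23 and -0.49. In the ribosomal window the medians were 0.00 for basement membrane and -0.12 for angiopoietin genes.

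The other vessel and immune lists had genes on both sides or few measured genes. Their counts stand beside 16.4% of all genes over 1.5-fold higher and 24.7% over 1.5-fold lower. The VEGF-C axis had 3 of 16 genes over 1.5-fold higher and 2 lower in Cre plus (median -0.31), endothelial sprouting 5 of 15 higher and 3 lower (median -0.08), Notch 1 of 11 higher and 3 lower (median -0.35) and TGF-β and BMP 1 of 16 higher and 3 lower (median -0.29). The medians of these 4 lists turned positive under some alternative, with highest values of 0.06, 0.26, 0.36 and 0.26 in the order given. Without the top barcode of each gene the VEGF-C axis had 3 higher and 2 lower, and sprouting 5 higher and none lower. Notch then had 3 higher and none lower, and TGF-β and BMP 1 higher and 2 lower. Junction genes had 5 of 14 lower and none higher (median -0.30), or 2 lower and 1 higher without the top barcode of each gene. Inhibitory ligands had 2 of 7 higher and 1 lower (median -0.07), and leukocyte adhesion genes 2 of 6 lower (median -0.25). These medians reached 0.18 and 0.25 under an alternative. Without the top barcode of each gene no leukocyte adhesion gene was past 1.5-fold, and inhibitory ligands had 2 higher and 1 lower. All 3 measured complement genes were lower (median -1.08), Serping1 among them. Of 14 chemokines only Cxcl9 and Ccl2 were measured beside the Ccl21a of the rule, and they lay on opposite sides.

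Immediate-early genes had 7 of 13 over 1.5-fold higher and 1 lower, beside 16.4% and 24.7% of all genes. Their median was 1.12 (0.33 to 1.30 over the alternatives). Fos stood at 72.9 CPM in Cre plus against 16.5 CPM in Cre minus (2.14 [1.21, 3.28]) and Jun at 187 and 86.1 CPM, while Egr1 stood at 34.3 and 58.6 CPM, and at 0.21 on the log2 scale without the top barcodes. The same list had a median of 0.55 in Malat1-poor lymphatic, 0.23 in cycling lymphatic and 1.13 in Malat1-rich blood endothelial barcodes (7, 13 and 13 genes measured). Heat shock genes had 5 of 9 higher (median 0.61, 0.25 to 0.80 over the alternatives) and NF-kB targets 5 of 13 higher and 1 lower (median 0.57, 0.23 to 0.75 over the alternatives), whereas none of 14 unfolded protein response genes was past 1.5-fold (median -0.01).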

How the data were processed

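The deposited files hold UMI counts per gene and barcode for 2 libraries of the 10x 3′ v3.1 kit, 32285 genes each. The authors made these counts with Cell Ranger 7.0.0 against mm10, per the submitters' processing notes; no source used here names the gene annotation. Library totals were 66704257 UMIs (Cre plus) and 76967583 UMIs (Cre minus). The members and gene lists were chosen with earlier results of these data known. Where a symbol occurred on several matrix entries, the one with the most UMIs was read. UMIs were summed over members per library and scaled to CPM. Ratios were given with exact conditional binomial 95% intervals and shares with Clopper-Pearson intervals; a count of 0 was set to a floor of 3 counts in ratios. Genes with a mean of at least 25 CPM over the libraries count as measured, and over 1.5-fold as called. Named genes are Ifngr1, the rule genes, the 20 highest and 20 lowest by the interval bound nearest to 0 with UMIs in at least 5% of members, the leading genes against other classes (Malat1-rich blood endothelial barcodes included), up to 5 per list by mean level and the 15 most variable. Left out there were mitochondrial, ribosomal protein, haemoglobin, sex-linked and unnamed genes and 25 of 6330 genes that free RNA of other cells could give. Some genes were named after their values were seen: the list members beyond the 5 most abundant. Some genes of the lists are not reported here by name. The 47 lists hold 838 entries, all of them found in the files. For shares and totals per barcode, each barcode was thinned to 5000 UMIs. Ratio intervals were checked on simulated independent Poisson counts. These hold no single barcodes rich in a gene, so the check does not cover that source of spread. Alternatives changed the limits on Malat1, panel, cycling genes, barcode quality and level, the scaling, the weight of barcodes, thinning and the top barcode. Promoter sequences come from RefSeq (GRCm38.p6). Python 3.11.15, numpy 2.4.6, scipy 1.17.1, pandas 2.3.3 and matplotlib 3.10.9 were used.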

Additional observations from a re-analysis of the deposited data

How the results depend on the processing

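No paired analysis was possible because each genotype had 1 library of pooled tumors. Of the values recomputed, 734 moved by less than their interval or kept their count within 1.5 times, and 163 moved further. Of values past 1.5-fold 16 turned sign, and of values within 1.5-fold 54 did, such as the medians of MHC class I, Notch and the type I interferon response. The share of members was 19.6% in Cre plus at a minimum of 1000 genes and under 5% mitochondrial; 9.09% (Cre plus) and 1.29% (Cre minus) with no cycling gene; and 6.51% and 0.451% with no melanoma, macrophage or stromal panel UMI. Ifngr1 stood at -1.93 with barcodes weighted equally and -1.97 in the Malat1 window. Genes over 1.5-fold higher numbered 2173 with no minimum level and 659 in the ribosomal window. Genes over 1.5-fold lower numbered 4363 and 775 there, 976 after centring on the median and 1066 at 50 CPM or more. Among members with no cycling gene (162 and 20 barcodes) and with no other panel UMI (116 and 7), in that order, the medians were -1.30 and -1.88 for interferon-induced GTPases, -0.53 and -0.51 for MHC class I, -0.24 and -0.38 for the type I interferon response and -0.35 and -0.27 for capillary genes. Capillary genes stood at -0.33 after centring and -0.075 in the ribosomal window. Glycolysis stood at 0.28 with no other panel UMI and 0.63 in the ribosomal window. Of values past 1.5-fold, signs turned for blood endothelial markers outside the panel (-0.0021) and Fabp4 (-0.0021) in the ribosomal window, platelet and red cell genes (-2.02) at 0.2% Malat1 or more, and nuclear-retained RNAs (0.41) with no other panel UMI. They also turned for Rapgef4 (0.32 without the top barcodes, 0.51 without the Cre minus barcode richest in Malat1), Thbs1 (0.74, Malat1 window), Ntn4 (0.69 and 2.12, Malat1 and ribosomal windows), Fam214a (0.33 and 0.38 without those barcodes, 1.74 and 1.13 in the windows) and Nkain2 (0.20 and 0.51 without those barcodes, 2.15 in the ribosomal window). The causes were not tested. Precision is limited by the 30 Cre minus members, and by 13 or 14 of them in the windows.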
